A study of Mus musculus with 8 samples.

Results

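The genes described here handle iron or set how readily a cell dies by ferroptosis, a form of death driven by iron-dependent oxidation of membrane lipids. They were chosen by symbol and not by their values, though earlier results of these data were known. They are Tfrc, Slc40a1, Slc11a2, Fth1, Ftl1, Ncoa4, Gpx4, Acsl4, Aifm2 and Lpcat3, 10 of the 45777 genes listed in the count files. RNA was sequenced from 8 cultures of mouse organoids, which are small 3-dimensional cultures of tumour epithelium. Per the labels the tumours are hepatocellular carcinoma related to metabolic dysfunction-associated steatohepatitis (MASH), and all 8 cultures carry the genotype WT. The parental group holds 4 untreated lines: SNU-6621 and SNU-6622, and SNU-6624 with SNU-6625. The lenvatinib group holds SNU-6624 and SNU-6625 treated with lenvatinib, an inhibitor of several receptor tyrosine kinases. The resistant group holds lenvatinib-resistant cultures of the same 2 lines, and their treatment label is control, so they cannot be assumed to have had the drug present at harvest. Multi-biotics, which the series' design mentions as a treatment, appear in the label of none of these libraries. The labels used here give no dose, duration, mouse strain or age, and no label says whether a line comes from more than 1 animal. Each line has 1 library in each group it enters, so p-values measure only the spread between these libraries.

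Iron enters most cells when transferrin binds its receptor, encoded by Tfrc. Slc11a2 (also called DMT1) then moves the iron into the cytosol, and Slc40a1 (ferroportin) is the only known exporter of iron in mammals. Ferritin, a shell of heavy (Fth1) and light (Ftl1) chains, stores what is not used, and Ncoa4 carries ferritin to the lysosome, where its iron is released. Acsl4 and Lpcat3 build polyunsaturated fatty acids into membrane phospholipids, the material that is oxidised in ferroptosis. Gpx4, a selenium enzyme, uses glutathione to reduce the oxidised lipids. Aifm2 (also called FSP1) acts separately by reducing coenzyme Q, which then traps lipid radicals. The liver is a main iron store of the body, and hepatocytes and macrophages carry most of it.

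Several of these transcripts carry an iron-responsive element, a hairpin bound by the iron regulatory proteins Aco1 and Ireb2 when iron is scarce. A hairpin before the coding sequence lets those proteins block translation, and hairpins after it protect the mRNA from decay. A script searched all mouse coding transcripts of GENCODE M21 (build GRCm38, the assembly of mm10), on the transcript strand, for CAGTG followed by A, C or T, closed by 5 base pairs (G-T allowed) with a C just before the stem. It found the hairpin in 4 of the 10 genes, and in the UTRs of 122 of 21877 coding genes (0.558%). The hairpins are shown because, among these 4 genes, their place sets apart Fth1, Ftl1 and Slc40a1 from Tfrc. Each is printed 5′ to 3′ as DNA, 28 bases long, with the loop in capitals.
Fth1 (5′ UTR, chr19:9982733-9982760, plus strand): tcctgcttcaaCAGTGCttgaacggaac
Ftl1 (5′ UTR, chr7:45459779-45459806, minus strand): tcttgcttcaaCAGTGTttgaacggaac
Slc40a1 (5′ UTR, chr1:45925465-45925492, minus strand): aacttcagctaCAGTGTtagctaagttt
Tfrc (3′ UTR, chr16:32631220-32631247, plus strand): attatcggaagCAGTGCcttccataatt
Tfrc (3′ UTR, chr16:32631599-32631626, plus strand): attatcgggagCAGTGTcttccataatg
Tfrc (3′ UTR, chr16:32631664-32631691, plus strand): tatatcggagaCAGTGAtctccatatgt
Tfrc (3′ UTR, chr16:32631711-32631738, plus strand): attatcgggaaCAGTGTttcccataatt
The ferritin hairpins shared 26 of 28 bases, and that of Slc40a1 shared 13 with that of Fth1. All 4 hairpins of Tfrc lie in exon 19, its last. Not every annotated coding transcript carries the hairpin. It was in 4 of 5 for Fth1, 1 of 2 for Ftl1 and 1 of 4 for Slc40a1, and each hairpin of Tfrc was in 1 of 3. The pattern was not found in the other 6 genes, the iron transporter gene Slc11a2 among them. That says only that these letters are not in their GENCODE transcripts. The search kept only stems with all 5 bases paired, so a hairpin of another shape would be missed. Deposited counts report mRNA level alone, and block of translation would not be seen in them.

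Total counts ran from 49011663 to 61032387 per library, and each of the 10 genes had at least 643 counts in every library, so counting error would be small if these values are numbers of reads; the counting rule is not given in the sources used here. CPM stands for counts per megacount of the library. Of 8 hepatocyte markers, 4 (Alb, Cps1, Serpina1a and Cyp3a11) had 0 counts in all libraries, against a limit of 3 counts per library, and the list summed to 0.180 to 6.45 CPM. The 6 biliary and progenitor markers summed to 6761 to 7942 CPM in parental, 2241 to 2737 CPM in lenvatinib and 9107 to 11730 CPM in resistant libraries. Defining hepatocyte markers were thus absent or close to 0 in organoids labelled as hepatocellular carcinoma. Macrophages and red blood cells, which carry much of the iron and heme RNA of liver tissue, left little trace. Of 10 macrophage markers 8 were at 0 in every library, Ptprc, Adgre1, Clec4f, Vsig4 and Cd163 among them. The macrophage list summed to 24.5 to 58.1 CPM in parental, 31.7 to 47.8 CPM in lenvatinib and 38.0 to 44.1 CPM in resistant libraries, nearly all of it the lysosomal gene Cd68. The 4 globin genes were at 0 throughout. The share of ribosomal RNA genes was 0.0942% to 0.1103% in parental libraries and 0.0411% to 0.0533% in the others. The shares thus set all parental libraries apart from all others. In both comparisons with parental libraries, unequal preparation and the groups cannot be told apart for any of the 10 genes. This includes Slc40a1 and Ncoa4, which differed from parental libraries in both the lenvatinib and the resistant group.

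In untreated organoids ferritin dominated. Per kilobase of the longest coding transcript, the mean over the 4 parental lines was 2352 CPM per kb for Ftl1, 742 for Fth1 and 171 for Gpx4. Ncoa4 (67.8 CPM per kb), Lpcat3 (45.7), Acsl4 (39.1), Tfrc (35.1), Slc40a1 (19.1), Slc11a2 (10.1) and Aifm2 (4.51) followed. The ranges of the lines did not overlap between the first 3 genes (1879 to 2843, 570 to 953 and 150 to 190 CPM per kb), nor between Gpx4 and Ncoa4 (23.2 to 118). The ranges of Ncoa4, Lpcat3, Acsl4, Tfrc and Slc40a1 overlapped their neighbours in this order, while Aifm2 (3.87 to 5.87) lay below Slc11a2 (8.69 to 12.8).

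The genes that varied most between lines were Tfrc, Ncoa4, Slc40a1 and Acsl4. Tfrc (gene 22042, chromosome 16, 32608920 to 32632794, mm10) had 34.8, 152, 242 and 258 CPM in the parental libraries (SNU-6621 first, then SNU-6622, then SNU-6624, SNU-6625 last), a 7.41-fold range with SNU-6621 lowest. Ncoa4 (gene 27057, chromosome 14, 32159865 to 32179855) had 94.2, 294, 235 and 479 CPM in the same order, and SNU-6621 was again lowest. Slc40a1 (gene 53945, chromosome 1, 45908068 to 45926523) had 34.7, 129, 33.8 and 60.1 CPM, so SNU-6622 stood highest. Acsl4 (gene 50790, chromosome X, 142317993 to 142390535) had 414, 171, 114 and 127 CPM, with SNU-6621 highest. The line SNU-6621 therefore combined the lowest transferrin receptor transcript with the highest Acsl4 among these 4 libraries.

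The other 6 genes varied less. Fth1 (gene 14319, chromosome 19, 9980598 to 9985098) had 967, 1423, 1193 and 851 CPM, and Ftl1 (gene 14325, chromosome 7, 45457944 to 45459884) had 2752, 1819, 2496 and 2038 CPM. Gpx4 (gene 625249, chromosome 10, 80047166 to 80056439) was the steadiest, at 149, 189, 172 and 171 CPM. Aifm2 (gene 71361, chromosome 10, 61715263 to 61739260) had 18.1, 12.5, 11.95 and 13.1 CPM. Slc11a2 (gene 18174, chromosome 15, 100387898 to 100425072) had 56.4, 41.4, 42.4 and 38.4 CPM, and Lpcat3 (gene 14792, chromosome 6, 124663027 to 124704418) 70.8, 108, 106 and 132 CPM. For 6 of the 10 genes the highest line was less than 2-fold above the lowest. Lines had 1 parental library each, so these differences have no replicate check.

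**Figure D1:**
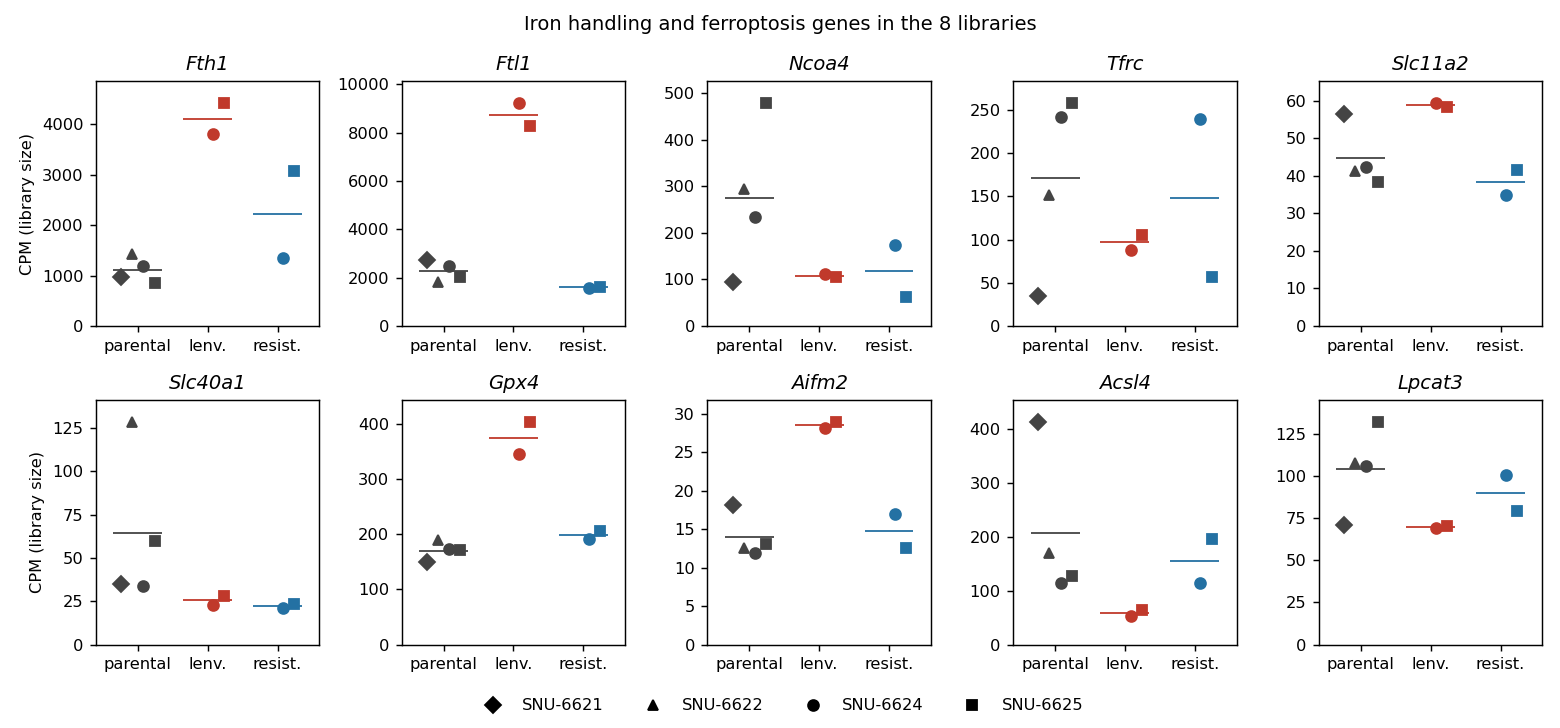
CPM by library size (y axes, each from 0) of the 10 genes in parental, lenvatinib and resistant (x axes) libraries. Each point is 1 library, the shape gives the line, and bars are group means over 4, 2 and 2 libraries. Fth1, Ftl1, Gpx4, Aifm2 and Slc11a2 were highest in the 2 lenvatinib libraries, and Acsl4 and Lpcat3 lowest there.

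Lenvatinib organoids had more ferritin, Gpx4 and Aifm2 transcript than parental organoids of SNU-6624 and SNU-6625, and less Tfrc, Ncoa4, Slc40a1, Acsl4 and Lpcat3. None of the 10 passed the main test, the quasi-likelihood F test of edgeR with group and line as terms over the 6 libraries of SNU-6624 and SNU-6625. Of all 17038 genes tested 5.78% were called at a Benjamini-Hochberg adjusted p under 0.05. Unadjusted, 8 of the 10 genes had p under 0.05, as had 5421 of all 17038. DESeq2 called 9 of 10, where it called 21.5% of all genes, and limma-voom called 3, where it called 9.96%. In an edgeR fit to the 4 parental and lenvatinib libraries alone, without the resistant ones, 10 of 10 were called, 5 up and 5 down, where 48.3% of all genes were (22.8% up and 25.5% down). Calls in fits with a library left out depended on which library it was, for these genes as for all genes. Such fits leave a group with a lone library, and their calls do not set the 10 genes apart from the rest. Directions were the same in both lines for all 10 genes, and the fitted direction held under each of the 15 alternatives run on them. Of all 17038 genes tested, 7051 were higher and 7143 lower in both lines.

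Of the storage genes, Fth1 had 3812 and 4419 CPM in lenvatinib SNU-6624 and SNU-6625, 3.20-fold and 5.19-fold the parental library of the line. The 2 lines averaged 1022 ± 241 CPM in parental and 4115 ± 429.5 CPM in lenvatinib libraries (SD, n = 2), with a log2 fold change of 1.89 (SE 0.54, adjusted p = 0.104 by edgeR). Ftl1 had 9215 and 8265 CPM, 3.69-fold and 4.06-fold the parental level, a log2 fold change of 1.87 (SE 0.34, adjusted p = 0.0559 by edgeR). Both lenvatinib libraries lay above all 6 others for each ferritin gene. Together the ferritin genes held 1.30% and 1.27% of all counts in the lenvatinib libraries, against 0.289% to 0.372% in parental and 0.294% and 0.471% in resistant libraries.

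Reads of Ftl1 and Gpx4 may be shared with near-identical processed pseudogenes. Counts assigned to Ftl1-ps1, Ftl1-ps2 and Ftl2-ps came to 4.64% to 5.67% of those of Ftl1 in every library, and counts of Gpx4-ps1 and Gpx4-ps2 to 12.2% to 14.5% of those of Gpx4. The Ftl1 shares overlapped between the groups. Those of Gpx4 were 12.9% and 12.2% in the lenvatinib libraries, slightly below the 13.1% to 14.5% of the others. With the copies summed, an alternative chosen after seeing the data, the log2 fold changes were 1.86 for Ftl1 and 1.02 for Gpx4.

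Ncoa4, which sends ferritin to degradation, was lower in both lenvatinib libraries than in the parental library of the line. It had 111 and 106 CPM in the lenvatinib libraries, 0.472-fold and 0.222-fold the parental level of the line. The log2 fold change was -1.82 (SE 0.57, adjusted p = 0.119 by edgeR). The 2 lenvatinib libraries differed little from each other, while the parental ones did not (235 and 479 CPM), and untreated SNU-6621 was lower still at 94.2 CPM.

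Among the transporters, Tfrc had 87.9 and 106 CPM, 0.363-fold and 0.410-fold the parental level, a log2 fold change of -1.44 (SE 0.57, adjusted p = 0.168 by edgeR). The untreated library of SNU-6621 had less than either. Tfrc transcript is known to be high in dividing cells, so the proliferation gene Mki67 is given beside it. Mki67 had 55.4, 72.5, 211 and 233 CPM in the 4 parental libraries in the order above, 1.49 and 1.93 CPM in the lenvatinib libraries, and 39.0 and 0.279 CPM in the resistant ones. Its part in the Tfrc values was not tested. Slc40a1 had 22.9 and 28.0 CPM after lenvatinib, below all 4 parental libraries, with a log2 fold change of -0.92 (SE 0.21, adjusted p = 0.0719 by edgeR). Slc11a2 had 59.3 and 58.4 CPM, 1.40-fold and 1.52-fold the parental level, and a log2 fold change of 0.46 (SE 0.21, adjusted p = 0.206 by edgeR). It was the only one of the 10 that DESeq2 did not call.

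Of the ferroptosis genes, Gpx4 had 345 and 403 CPM, 2.003-fold and 2.36-fold the parental level, a log2 fold change of 1.04 (SE 0.18, adjusted p = 0.0522 by edgeR). Aifm2 had 28.2 and 29.0 CPM, from 1593 and 1575 counts, 2.36-fold and 2.21-fold the parental level. Its log2 fold change was 1.11 (SE 0.19, adjusted p = 0.0521 by edgeR). Both defence genes lay above all 6 other libraries in both lines. On the promoting side Acsl4 had 52.4 and 64.1 CPM, 0.459-fold and 0.506-fold the parental level, a log2 fold change of -1.14 (SE 0.26, adjusted p = 0.0750 by edgeR). Lpcat3 had 69.0 and 70.3 CPM, 0.651-fold and 0.531-fold, with -0.85 on the log2 scale (SE 0.18, adjusted p = 0.0641 by edgeR); untreated SNU-6621, at 70.8 CPM, was close to it. The ratio of Acsl4 to Gpx4 counts was 0.152 and 0.159 in the lenvatinib libraries, against 0.593 to 2.78 in the other 6.

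In CPM by library size, lenvatinib and the 4 parental libraries did not overlap for 8 of the 10 genes, against 52.4% of tested genes. For 7 genes the lenvatinib libraries stood apart from all 6 others, against 36.3% of tested genes. Slc11a2 entered both counts by a small margin, with 58.45 CPM in lenvatinib SNU-6625 and 56.4 CPM in untreated SNU-6621. The TMM factors of these libraries over the 8 libraries were 1.09 and 1.037, and with TMM scaling Slc11a2 overlapped. Exons of Lpcat3, Aifm2, Slc11a2 and Ftl1 overlap those of genes on the other strand in GENCODE M21. The strand setting of the counting is not given in the sources used here. Of the overlapping genes, Macroh2a2, opposite Aifm2, had at most 3.37 CPM, Gm5475, opposite Slc11a2, at most 0.0683 CPM, and Emg1, opposite Lpcat3, 30.1 to 50.3 CPM. No value was used here for Gm10252, opposite Ftl1.

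**Figure D2:**
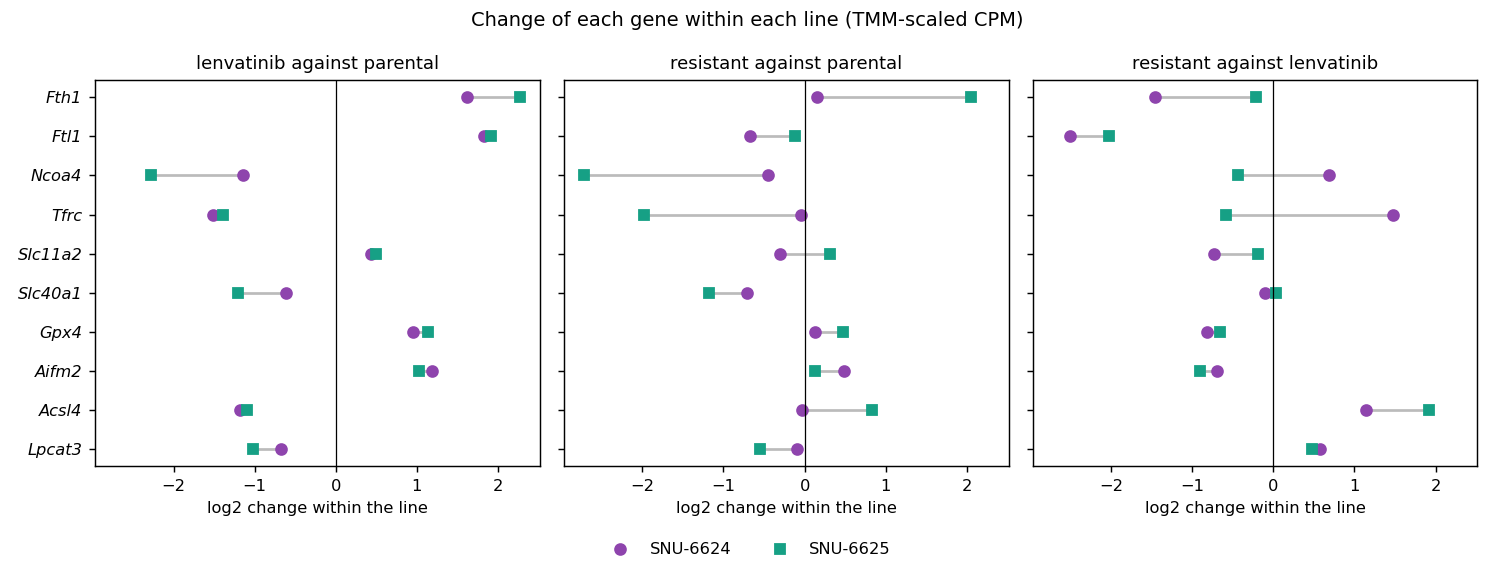
Log2 change of each gene within SNU-6624 (circles) and SNU-6625 (squares) on TMM-scaled CPM (x axis), for the 3 comparisons; a grey line joins the lines. For lenvatinib against parental both lines lie on the same side of 0 for all 10 genes, furthest apart for Ncoa4 (-1.14 and -2.28). For resistant against parental Ncoa4 (-0.45 and -2.72), Tfrc (-0.043 and -1.98) and Fth1 (0.16 and 2.05) lie further apart.

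The resistant libraries of SNU-6624 and SNU-6625 differed from the parental library of their line to unequal degrees. Line and library cannot be told apart here, so a difference between the lines was not tested. Fth1 was far higher and Tfrc and Ncoa4 far lower in resistant SNU-6625, and these 3 genes lay nearer their parental levels in resistant SNU-6624. Slc40a1 was lower in both. No member was called, and edgeR called 0% of 17038 genes here, with 2715 genes and 2 of the 10 (Slc40a1 and Ncoa4) at an unadjusted p under 0.05. DESeq2 called those 2, both down, where it called 6.48% of all genes (3.33% down), and limma-voom called 0. Without resistant SNU-6624, edgeR called 5 of the 10, 2 up and 3 down, and 5819 of all genes, 2873 up and 2946 down, but resistance is then represented by SNU-6625 alone.

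Fth1 had 1354 and 3073 CPM in resistant SNU-6624 and SNU-6625, 1.14-fold and 3.61-fold the parental library of the line. The log2 fold change was 1.14 (SE 0.55, adjusted p = 0.371 by edgeR). Its partner Ftl1 had 1586 and 1634 CPM, 0.636-fold and 0.802-fold the parental level (log2 fold change -0.39, SE 0.34, adjusted p = 0.566 by edgeR). By library size both lay below all 4 parental libraries, of which SNU-6622 was lowest at 1819 CPM. The TMM factor over the 8 libraries was 0.881 for resistant SNU-6625 and 0.976 for parental SNU-6622, so TMM scaling narrows that margin. The ferritin subunits thus differed from parental in opposite directions in both lines, neither called. The ratio of Ftl1 to Fth1 counts does not depend on scaling between libraries. Parental libraries had 2.85, 1.28, 2.09 and 2.39 in the order above. Lenvatinib libraries had 2.42 and 1.87, and the resistant pair 1.17 and 0.532, SNU-6624 first. Both resistant libraries lay below all 6 others, and resistant SNU-6625 was the only library in which Fth1 had more counts than Ftl1. The distance to parental SNU-6622, at 1.28, was small for resistant SNU-6624.

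**Figure D3:**
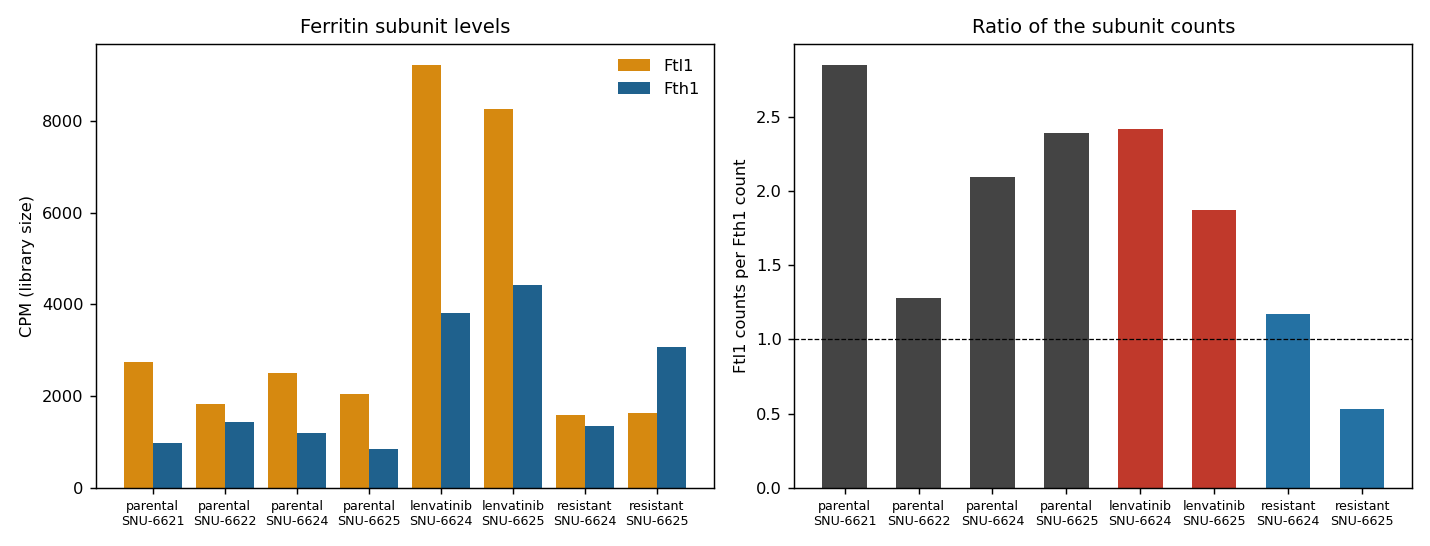
Left, CPM by library size of Ftl1 and Fth1 in each of the 8 libraries (not per length, so heights compare libraries and not genes). Right, Ftl1 counts per Fth1 count; the dashed line marks equal counts, and the ratio was 1.17 and 0.532 in the resistant libraries against 1.28 to 2.85 in the other 6.

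Ncoa4 had 175 and 63.3 CPM in resistant SNU-6624 and SNU-6625, 0.745-fold and 0.132-fold the parental level (log2 fold change -1.58, SE 0.59, adjusted p = 0.308 by edgeR). Resistant SNU-6625 had the lowest Ncoa4 of the 8 libraries. Tfrc had 239 and 57.0 CPM, 0.987-fold and 0.221-fold, at the parental level in resistant SNU-6624 and low in resistant SNU-6625. Its log2 fold change was -0.89 (SE 0.58, adjusted p = 0.468 by edgeR). Mki67 had 39.0 and 0.279 CPM in these resistant libraries, against 211 and 233 CPM in the parental libraries of the lines. The part of Mki67 in the Tfrc values was not tested. Slc40a1 had 21.01 and 23.2 CPM, 0.622-fold and 0.386-fold the parental level, below all 4 parental libraries and close to the lenvatinib values. Its log2 fold change was -0.95 (SE 0.21, adjusted p = 0.247 by edgeR). Slc11a2 had 34.96 and 41.6 CPM (log2 fold change 0.015, SE 0.21, adjusted p = 0.975 by edgeR), on either side of the parental level in the 2 lines.

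None of the 4 ferroptosis genes was called in the resistant cultures. Gpx4 had 192 and 206 CPM, by library size above all 4 parental libraries by a small margin (189 CPM in SNU-6622). The TMM factor over the 8 libraries was 1.005 for resistant SNU-6624 and 0.976 for parental SNU-6622. With TMM scaling resistant SNU-6624 lay below parental SNU-6622. The log2 fold change of Gpx4 was 0.30 (SE 0.18, adjusted p = 0.442 by edgeR). Aifm2 had 17.0 and 12.5 CPM, 1.42-fold the parental level in SNU-6624 (log2 fold change 0.31, SE 0.19, adjusted p = 0.453 by edgeR). In SNU-6625 its direction depended on scaling, at 0.954-fold by library size and 0.13 on the log2 scale with TMM. Acsl4 had 114 and 196 CPM, 0.996-fold and 1.54-fold the parental level, and was called without resistant SNU-6624, at 0.80 on the log2 scale (main test: log2 fold change 0.41, SE 0.26, adjusted p = 0.459 by edgeR). Lpcat3 had 101 and 79.1 CPM, 0.953-fold and 0.598-fold the parental level (log2 fold change -0.32, SE 0.17, adjusted p = 0.408 by edgeR). In CPM by library size, resistant and parental libraries did not overlap for 3 of the 10 genes, Slc40a1, Ftl1 and Gpx4, against 25.4% of tested genes.

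Set against the lenvatinib libraries, with which they share the 2 lines, the resistant libraries had less light-chain ferritin and more Acsl4. Ftl1 fell by 2.26 on the log2 scale (SE 0.35, adjusted p = 0.0435 by edgeR) and Acsl4 rose by 1.55 (SE 0.27, adjusted p = 0.0492 by edgeR). These 2 of 10 genes were called, where 6.23% of all tested genes were (4.14% up and 2.08% down). limma-voom called the same 2, where it called 9.31%, and a fit to the 4 libraries compared called 0, where it called 1.45%. Both lie close to the threshold: over the main test and its 15 alternatives, 16 fits in all, the adjusted p ran from 7.1e-16 to 0.328 for Ftl1, called in 10, and from 1.6e-05 to 0.330 for Acsl4, called in 7. Neither was called without either lenvatinib library or without either parental library. DESeq2 also called Gpx4 and Aifm2, both down, 4 in all, where it called 20.9% of genes (8.01% down). In the main test Gpx4 had -0.74 (SE 0.18, adjusted p = 0.0809 by edgeR) and Aifm2 -0.80 (SE 0.19, adjusted p = 0.0787 by edgeR). Fth1 had -0.75 (SE 0.53), Lpcat3 0.53 (SE 0.17), Slc11a2 -0.45 (SE 0.21) and Slc40a1 -0.035 (SE 0.20), none called. Tfrc and Ncoa4 went opposite ways in the 2 lines, at 1.47 and -0.58 for Tfrc and 0.69 and -0.44 for Ncoa4 in SNU-6624 and SNU-6625, as log2 changes. In CPM by library size the groups did not overlap for 7 genes, where 58.7% of tested genes did not. The comparison shares its lenvatinib libraries with lenvatinib against parental, and its resistant libraries with resistant against parental. Without scaling beyond library size, 47.3% of calls over all genes were rises against 66.5%, and the median log2 fold change over all genes was -0.14 against 0.020.

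**Figure D4:**
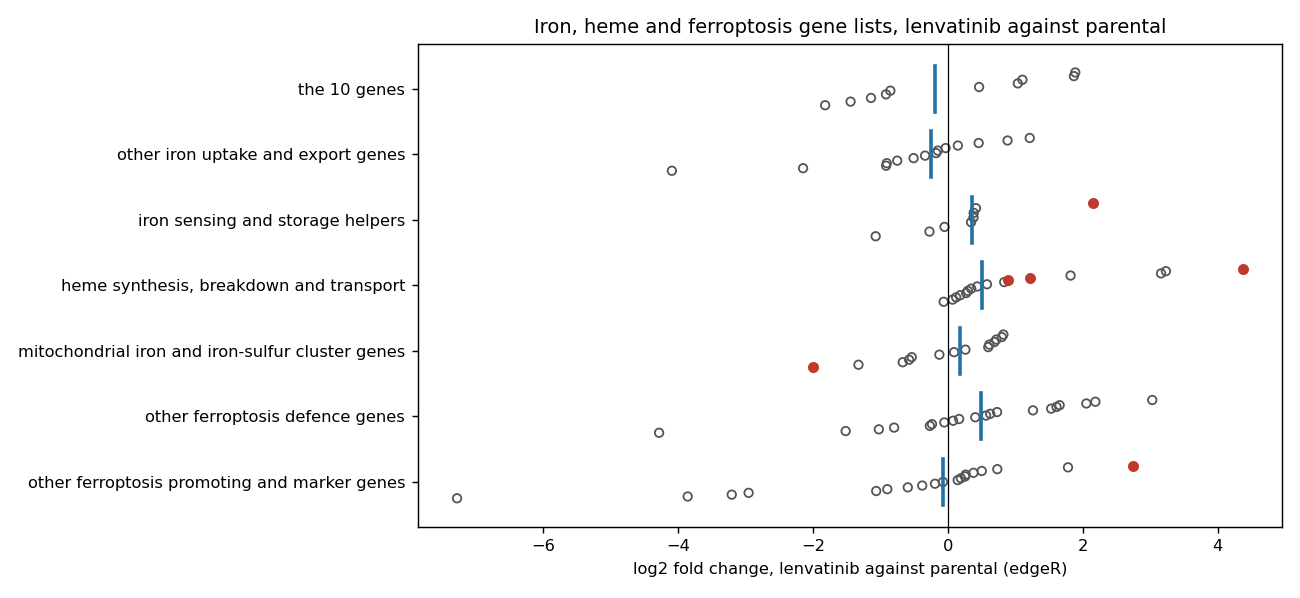
Log2 fold change of lenvatinib against parental (x axis, edgeR) for the 10 genes and for 6 lists of related genes (rows). Each circle is 1 tested gene, filled circles were called, and blue bars are list medians. The heme list lies mostly right of 0, with Hmox1 at 4.38 furthest out.

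The wider pathway was read from 6 lists of genes. Calls in these lists have the same limit as those above: without any 1 parental or lenvatinib library, 0 of all genes were called for lenvatinib against parental. Of all 17038 genes, edgeR called 289 up and 696 down for that comparison, DESeq2 called 1330 up and 2339 down, and 7051 were higher in both lines. Of 16 heme genes 3 were called up after lenvatinib and 0 down, with 13 higher in both lines and a median log2 fold change of 0.51, against -0.0089 over all genes. Hmox1, which breaks down heme and frees its iron, rose by 4.38 (SE 0.57, adjusted p = 0.0398 by edgeR). Alad, an early enzyme of heme synthesis, rose by 1.21 (SE 0.19) from 122 and 104 to 260.1 and 293 CPM. Fech, which puts iron into heme as the last step, rose by 0.89 (SE 0.14) from 41.7 and 43.6 to 84.96 and 82.2 CPM. For each of Alad and Fech the adjusted p was 0.0447 by edgeR.

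Of the 8 tested iron sensing and storage genes, 1 was called up and 0 down. It was Bmp6, which signals iron status to hepatocytes in the liver, at 2.15 (SE 0.30, adjusted p = 0.0422 by edgeR), from 16.8 and 3.63 to 67.4 and 20.6 CPM. Of 14 mitochondrial iron and iron-sulfur cluster genes 1 was called down and 0 up. It was Abcb8, a mitochondrial inner membrane transporter, at -2.005 (SE 0.14, adjusted p = 0.0275 by edgeR), from 90.6 and 94.6 to 24.9 and 23.9 CPM. Of 19 ferroptosis promoting and marker genes Chac1, whose product degrades glutathione, was called up at 2.75 (SE 0.41), from 15.4 and 9.61 to 102 and 75.5 CPM, and 0 were called down. Of 20 other defence genes 0 were called by edgeR, with 12 at an unadjusted p under 0.05 (5421 of all 17038) and 6 up and 4 down by DESeq2. The smallest p-values there were those of Mboat1 (-1.02, adjusted p = 0.0582 by edgeR) and of the thioredoxin reductase gene Txnrd1 (2.05, adjusted p = 0.0606 by edgeR), not called. Of 14 other uptake and export genes 0 were called, with 3 at an unadjusted p under 0.05 and 1 up and 1 down by DESeq2. They were led by the lysosomal channel gene Mcoln1 (0.88) and the metal importer gene Slc39a14 (-0.75). Without scaling beyond library size, 43.4% of calls over all genes were rises, against 29.3%.

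In resistant against parental organoids 0 genes of the 6 lists were called by edgeR. At an unadjusted p under 0.05 were 3 of the 14 uptake and export genes, 0 of 8 sensing, 1 of 16 heme, 3 of 14 mitochondrial, 4 of 20 defence and 6 of 19 promoting genes. DESeq2 called 2, 0, 2, 0, 1 and 4 up and 0, 0, 0, 1, 0 and 2 down in the same order. Over all 17038 genes, 2715 were at an unadjusted p under 0.05, and DESeq2 called 536 up and 568 down. The smallest p-values in the uptake list were those of Lcn2, which binds iron-carrying siderophores (4.54, SE 0.72, adjusted p = 0.247 by edgeR), and the reductase gene Steap2 (1.09). In the heme list they were those of Alas1, the first enzyme of heme synthesis (1.083), and the biliverdin reductase gene Blvrb (1.76). Hscb (-0.96) and Iscu (0.61) led the mitochondrial list, Gch1 (0.89) and Dhcr7 (-0.72) the defence list, and Acsl1 (-1.18) and Chac1 (1.53) the promoting list. Blvrb rested on SNU-6625, with 195 CPM in its resistant and 29.1 CPM in its parental library, against 42.3 and 33.9 CPM in SNU-6624.

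For resistant against lenvatinib organoids edgeR called 706 of 17038 genes up and 355 down, and 5173 had an unadjusted p under 0.05; DESeq2 called 2205 up and 1364 down. The list calls that follow were all lost in the fit to the 4 libraries compared, where 0 genes of the 6 lists were called, and without either lenvatinib library. Hmox1 fell by 3.31 on the log2 scale (SE 0.55, adjusted p = 0.0470 by edgeR) and Alad fell by 1.39 (SE 0.19, adjusted p = 0.0380 by edgeR), 2 down and 0 up of 16 heme genes. Bmp6 fell by 2.01 (SE 0.30), the 1 call among 8 sensing genes. Abcb8 rose by 1.58 (SE 0.14) and Hscb, a helper of iron-sulfur cluster assembly, fell by 1.56 (SE 0.22), 1 up and 1 down of 14. Mboat1, a lysophospholipid acyltransferase of the defence list, rose by 1.57 (SE 0.20), the 1 call of 20, and the fatty acid activating enzyme gene Acsl1 fell by 1.56 (SE 0.21), the 1 call of 19. Of 14 uptake and export genes 0 were called, with 6 at an unadjusted p under 0.05 and 6 up by DESeq2; Slc39a14 (1.13) and Lcn2 (3.32) had the smallest p-values. List medians were 1.13, -0.17, -0.59, -0.11, -0.26 and 0.61 for the uptake, sensing, heme, mitochondrial, defence and promoting lists.

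Likeness of pattern was measured for Fth1, Slc40a1, Tfrc and Gpx4 as the root mean square difference of centred log2 CPM over the 8 libraries, among 10270 genes with a mean of at least 5 CPM. Fth1 was most like Creg1 (0.26), Zfp970 (0.27) and Ggct (0.28), where the median gene differed by 0.90. Creg1, a lysosomal glycoprotein gene, had 65.2 to 79.7 CPM in parental, 325 and 289.5 in lenvatinib, and 78.0 and 192 in the resistant libraries, SNU-6624 first. Slc40a1 was most like Naprt (0.31), Ifih1 (0.31) and Asap3 (0.34), with a median of 0.94. Tfrc was most like Tmem117 (0.28), Hopx (0.36) and Kcnh2 (0.36), with a median of 1.076. Gpx4 was closest to Tmem199 (0.064), to its own pseudogene Gpx4-ps2 (0.076), which may share its reads, and to the proteasome gene Psmd2 (0.10), with a median of 0.52. These values describe 8 libraries that share lines and groups.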

How the data were processed

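The authors deposited 1 table per library of whole-number counts per gene, with NCBI gene identifiers and symbols per the file headers. Per the submitters' processing notes, the build was mm10 and the tools were StringTie 2.1.3b, Bowtie2 2.3.4.1, HISAT2 2.1.0, Trimmomatic 0.38 and FastQC 0.11.7. The counting rule and its strand setting: not given in the sources used here. Whether a count is 1 read is not known. Libraries were made with a stranded mRNA kit, per the labels' protocols. No pair of libraries held identical values.

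From the counts, edgeR 4.0.16 (R 4.3.3) was fitted to the 6 libraries of the lines in all 3 groups, with terms for group and line, TMM scaling and its filter on low counts, which kept 17038 genes, all 10 described genes among them. Residual degrees of freedom were 2 and prior ones 2.53. SE was taken as the size of the log2 fold change over the root of its F statistic. Line pairs the libraries because the cell line label names it; deviations from group means correlated over genes at 0.504 (parental and lenvatinib), 0.288 (parental and resistant) and 0.290 (lenvatinib and resistant). On simulated data for lenvatinib against parental (17038 genes, 200 changed, 3 draws), edgeR recovered 61.1% of the 8-fold, 38.3% of the 4-fold and 1.49% of the 2-fold changes and made 7 false calls in each draw on average. In the simulation both lines had the same mean for each gene, and changes were put into the lenvatinib libraries only. The data had 5421 genes at an unadjusted p under 0.05 by edgeR in this comparison, so these rates may not hold for the data. Alternatives used DESeq2 1.42.0, limma-voom (limma 3.58.1), other scaling, filters and sets of libraries.

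The genes, lists and tests were chosen with earlier results of these data known. Named from each list were up to 4 called genes of smallest p per comparison, or the 2 of smallest p where 0 were called, with at least 5 CPM in a library of the fit. Log2 CPM used a prior count of 2. Gene positions, transcript lengths and hairpins come from GENCODE M21, matched by symbol for all 10 genes.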

Additional observations from a re-analysis of the deposited data

Results flagged for a closer look

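In 5 instances the lines SNU-6624 and SNU-6625 moved in opposite directions on TMM-scaled CPM. With 1 library per line and group the difference between lines was not tested. In resistant against parental libraries, Slc11a2 had log2 changes of -0.30 and 0.31 in SNU-6624 and SNU-6625, and Acsl4 had -0.031 and 0.83. In resistant against lenvatinib libraries, Tfrc had 1.47 and -0.58, Ncoa4 had 0.69 and -0.44, and Slc40a1 had -0.097 and 0.035. The values of Slc40a1, and that of Acsl4 in SNU-6624, are close to 0. In lenvatinib against parental libraries all 10 genes moved the same way in both lines, where 7051 of all 17038 genes tested rose and 7143 fell in both.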

How the results depend on the processing

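Over all genes, calls for lenvatinib against parental were 985 in the main test, 174 with no filter on low counts, 7942 with only the 4 libraries compared, 1697 by limma-voom and 3669 by DESeq2. For resistant against parental they were 0, and 1104 by DESeq2. For resistant against lenvatinib they were 1061, and 324 with no filter, 234 with only the 4 libraries compared and 3569 by DESeq2. With 1 library left out at a time these counts ran from 0 to 7798, from 0 to 5819 and from 0 to 6286. The lone library of a group was then assumed to vary like the others. The counts were 0 for lenvatinib against parental without either parental or either lenvatinib library, and for resistant against lenvatinib without either lenvatinib library; there they were 90 and 118 without parental SNU-6624 and SNU-6625. They were highest without resistant SNU-6624, and 580 for resistant against parental without resistant SNU-6625.

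Of the 10 genes, calls for lenvatinib against parental were 0 in the main test, 2 by library size only, 4 with no replicate block, 10 with only the 4 libraries compared, 3 by limma-voom, 9 by DESeq2, and 0 to 10 with 1 library left out. For resistant against parental they were 0, 2 by DESeq2, and 0 to 5 with 1 library left out. For resistant against lenvatinib they were 2, 1 with RLE size factors, 0 with no filter, 1 with no replicate block and 1 with all 8 libraries. With only the 4 libraries compared they were 0, and by DESeq2 4. Over all genes, RLE size factors gave 968 calls for resistant against lenvatinib, and all 8 libraries gave 859. Library size only gave 983 calls over all genes for lenvatinib against parental. The no replicate block fit drops line as a term. It gave 1053 and 1119 calls over all genes for lenvatinib against parental and resistant against lenvatinib, and the 4 genes it called for the former were Ftl1, Gpx4, Aifm2 and Lpcat3.

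Signs turned in 9 instances. In resistant against parental, Slc11a2 had -0.079 by library size only, -0.29 without resistant SNU-6625 and -0.16 without parental SNU-6625, and Acsl4 had -0.012 without resistant SNU-6625. In resistant against lenvatinib, Tfrc had -0.54 without resistant SNU-6624 (adjusted p = 0.0286 by edgeR) and -0.015 without lenvatinib SNU-6624, Slc40a1 had 0.044 without resistant SNU-6625 and 0.16 without lenvatinib SNU-6624, and Ncoa4 had -0.74 without resistant SNU-6624. With 1 library left out at a time, the values ran up to 0.29 for Slc11a2 and 0.80 for Acsl4 in resistant against parental, and up to 1.44 for Tfrc, 0.95 for Ncoa4 and down to -0.18 for Slc40a1 in resistant against lenvatinib. The cause was not tested. The number of genes within 2-fold among parental lines (6) and of changes with 1 sign in both lines (25 of 30) was equal under the other scalings and prior count, but the changes counted were not all the same: by library size Aifm2 was lower in resistant than in parental SNU-6625, and Slc40a1 was lower in resistant than in lenvatinib libraries of both lines. Of all 17038 genes tested, 7051 rose and 7143 fell in both lines for lenvatinib against parental, with TMM scaling. The counts were 5164 and 5451 for resistant against parental, and 5614 and 5778 for resistant against lenvatinib. No alternative with other depth was run.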

Other observations

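The genes described here belong to the 6 lists, were not all named by the rule for those lists, and were chosen after their values were seen. Slc48a1, a heme transporter of lysosomes, had 87.1 and 76.0 CPM in parental libraries (SNU-6624 first, then SNU-6625), 816 and 719 CPM in lenvatinib and 70.6 and 308 CPM in resistant libraries. Its log2 fold change for lenvatinib against parental was 3.16 (SE 0.76, adjusted p = 0.0791 by edgeR, not called). Blvrb, which acts downstream of heme breakdown, had 33.9 and 29.1, 293 and 362, and 42.3 and 195 CPM in the same order. Gclc, the rate-limiting enzyme gene of glutathione synthesis, had 625 and 656, 5141 and 6085, and 331 and 1931 CPM. The cystine importer gene Slc7a11 had 161 and 171, 531 and 528, and 102 and 397 CPM. In each of these 4 genes, as in Fth1, resistant SNU-6625 lay between its parental and its lenvatinib library. Resistant SNU-6624 lay below its parental library for Slc48a1, Gclc and Slc7a11 and above it for Blvrb and Fth1.

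The cyclooxygenase gene Ptgs2, often read as a marker of ferroptosis in mouse tissue and also induced by inflammation, had 22.1 and 31.0 CPM in parental, 73.6 and 135 in lenvatinib, and 19.4 and 776 CPM in the resistant libraries, again with SNU-6624 first. The fatty acid desaturase genes Fads1 and Fads2, which make polyunsaturated fatty acids, had 149 and 240.3 CPM in untreated SNU-6621, against 1.98 to 7.37 and 35.5 to 77.0 CPM in the other 3 parental lines. The same library had the highest parental Acsl4. The iron oxidase gene Cp also stood highest there, with 550.2 CPM against 3.25 to 18.4 CPM in the others. These single libraries have no replicate check.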
